A study of Mus musculus with 3 samples.

Results

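The transcripts of 9 inflammatory genes were followed through the CD45+ (leukocyte) fraction of mouse colon, to set the cells that held them apart from barcodes that may have held free RNA. The genes were picked by symbol: Il1b, Il1a, Tnf, Cxcl1, Cxcl2, Cxcl3, Acod1, Ptgs2 and Spp1, which are 9 of the 30905 genes in the files. The study profiled CD45+ cells, isolated by flow sorting, with the 10x Genomics Single Cell 3′ kit version 3.1, in 1 library of each of 3 groups. Library C came from normal colon of healthy C57BL/6 mice. The neoplasia in the colon behind library T1 was low-grade and intraepithelial, and that behind library T3 was high-grade, both in C57BL/6 mice given azoxymethane (AOM, a colon carcinogen, 12 mg/kg into the peritoneum) and then 3 cycles of 2.5% dextran sodium sulfate (DSS, which injures the colon lining) for 7 days followed by 14 days of water. The labels give an age of 6 to 8 weeks at the start of the model for every library. The tissue of C is called healthy and a control, but the treatment text that names AOM and DSS stands under all 3 samples, so that C had neither is read only from its being called healthy. The labels give no number of mice, and against C the treatment, the neoplasia and the library itself cannot be told apart.

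Il1b and Il1a encode interleukin-1 beta and alpha, cytokines that signal through the IL-1 receptor, and Tnf encodes tumour necrosis factor. Both pathways activate the transcription factor NF-kappaB, which in turn drives many of the same cytokine and chemokine genes. Cxcl1, Cxcl2 and Cxcl3 encode chemokines that bind CXCR2 and draw neutrophils into tissue. Acod1 encodes the enzyme that makes itaconate, Ptgs2 encodes cyclooxygenase-2, which makes prostaglandin precursors, and Spp1 encodes osteopontin, a secreted ligand of integrins and CD44. In inflamed colon, neutrophils, monocytes and macrophages are known sources of these products, and T cells are a known source of TNF.

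The promoters of 4 members are shown: the 3 chemokine genes because they hold a shared kappaB match, and Ptgs2 because it holds a C/EBP match. RefSeq promoter sequences (GRCm38.p6) were matched by symbol for all 9. The 250 bases before each start were searched on both strands for a kappaB motif, AP-1 (TGANTCA), C/EBP (TTGCNNAA) and CRE (TGACGTCA), and on the gene's strand for TATAAA. Each line gives bases 120 to 31 before the start, 5′ to 3′, and capitals mark kappaB matches in the chemokine genes and the C/EBP match in Ptgs2. The regions were chr5:90891125-90891214 (Cxcl1), chr5:90903779-90903868 (Cxcl2), chr5:90785981-90786070 (Cxcl3) and chr1:150099911-150100000 (Ptgs2), all on the plus strand.
Cxcl1: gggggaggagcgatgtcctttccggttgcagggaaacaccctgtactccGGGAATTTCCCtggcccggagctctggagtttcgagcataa
Cxcl2: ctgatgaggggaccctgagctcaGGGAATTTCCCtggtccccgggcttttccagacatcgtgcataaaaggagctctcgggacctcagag
Cxcl3: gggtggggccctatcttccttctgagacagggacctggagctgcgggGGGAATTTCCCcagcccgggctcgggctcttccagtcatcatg
Ptgs2: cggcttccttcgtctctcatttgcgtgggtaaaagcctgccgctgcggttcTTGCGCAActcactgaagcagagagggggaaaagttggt

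The 3 chemokine promoters held the same 11-base run, GGGAATTTCCC, at bases 71 to 61 before the start of Cxcl1, 97 to 87 of Cxcl2 and 73 to 63 of Cxcl3. The kappaB motif matched this run on both strands, as 2 overlapping matches offset by 1 base. It was present in 14 of 32851 promoters (0.0426%), and any kappaB match was present in 3.90%. A kappaB match was found in 3 of the 9 members, TATAAA in 6 (7.59% of all promoters), C/EBP in 2 (9.56%), AP-1 in 1 (6.75%) and CRE in 0 (1.55%). A match describes the letters in this window and is not a measured binding site. The 3 chemokine genes lie on chromosome 5 at 90786103-90789600 (Cxcl3), 90891241-90893115 (Cxcl1) and 90903871-90905938 (Cxcl2), all on the plus strand in GRCm38 (GENCODE M21). Spp1 lies farther along the same chromosome at 104435118-104441050 on the plus strand. Il1a (129299610-129309972) and Il1b (129364570-129371139) are neighbours on the minus strand of chromosome 2. Tnf lies on chromosome 17 at 35199381-35202007 (minus strand), Acod1 on chromosome 14 at 103046977-103056573 (plus) and Ptgs2 on chromosome 1 at 150100031-150108227 (plus).

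The deposited matrices held 7903 (C), 8566 (T1) and 5779 (T3) barcodes, and 6004, 6143 and 4543 were kept with at least 200 genes and at most 20% mitochondrial counts. The kept barcodes held between 14312176 and 34388762 unique molecular identifiers (UMIs, each a counted transcript molecule), with a median of 4933, 5272 and 1803 UMIs. C and T1 shared 39 barcode sequences, C and T3 shared 35, and T1 and T3 shared 35. The labels give male mice, but Xist, the RNA made from an inactive X chromosome, was at 1284, 1196 and 1361 CPM (UMIs scaled to the total of the library or class), and Ddx3y, Uty and Eif2s3y of the Y chromosome were at 0 UMIs in all 3 libraries. The data therefore went against the sex label, equally in the 3 libraries. With 1 library per group no test between conditions was made. All intervals are 95% intervals that cover counting error only, and cells of a library are not replicates.

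Barcodes were sorted by fixed rules. Neutrophil barcodes had a Csf3r UMI, the receptor for the neutrophil growth factor G-CSF, and at least 10 UMIs of S100a8 plus S100a9, the calprotectin genes. Haemoglobin-rich barcodes had at least 1% and at least 10 UMIs of haemoglobin. Other myeloid barcodes had 3 or more monocyte, macrophage or dendritic genes, and T and B barcodes had at least 2 UMIs of their receptor genes and at most 1 of the other lineage. The neutrophil class held 6, 5 and 51 barcodes in C, T1 and T3 (0.0999%, 0.0814% and 1.12% of those kept), and other myeloid 33, 24 and 12. T barcodes numbered 2141, 2050 and 1812, and B barcodes 2963, 3155 and 946. The haemoglobin-rich class held 1, 0 and 1115 barcodes, or 24.5% of T3 (interval 23.3 to 25.8%). Near the neutrophil limit in T3, 4 barcodes with Csf3r had 5 to 9 calprotectin UMIs, 1 had 10 to 19, and 13 barcodes passed the calprotectin limit without a Csf3r UMI. The rest of each library (mixed T and B, plasma, mast, ILC2 and unnamed barcodes) is named where it held member UMIs.

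The neutrophil label was checked on 16 genes, of which Csf3r, S100a8 and S100a9 had set the class. UMIs of 13, 12 and 16 of the 16 were present in C, T1 and T3. The granule genes Camp, Ltf and Ngp, made early in neutrophil maturation, were at 0 in C and T1, and Ly6g, a surface marker of mouse neutrophils, was also at 0 in T1. Retnlg, a gene of mature mouse neutrophils, was at 3342, 2120 and 13883 CPM, and Cxcr2, the receptor for the 3 chemokines, at 323, 280 and 580 CPM. Of the 18 genes of the other myeloid list, 7, 9 and 10 had UMIs in neutrophil barcodes, summing to 4312, 6359 and 8085 CPM. C1qa, C1qb and C1qc were among those at 0 in all 3 libraries, while Lyz2 and Cd14 had 402 and 1114 UMIs in T3.

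Over all kept barcodes, 8 of the 9 genes were higher in T3 than in C, and Tnf was the exception. A gene was called higher or lower when its CPM differed at least 2-fold, with at least 20 UMIs over both libraries and an interval that left out equality. By this rule 6.97% of the 12889 genes tested were higher in T3 and 9.26% lower, and their median log2 ratio was -0.05, against 4.13 for the 9 members. Il1b was at 13.8, 43.4 and 253 CPM in C, T1 and T3 (460, 1494 and 3623 UMIs), which gave a log2 ratio of T3 over C of 4.19 (interval 4.05 to 4.34). Cxcl3 was at 0.331, 6.80 and 65.7 CPM, with a log2 ratio of 7.63 (6.79 to 8.64) that rested on 11 UMIs in C.

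The other members that were higher in T3 had log2 ratios between 2.33 (Ptgs2) and 4.80 (Spp1), with 3.37 for Cxcl2 and 4.13 for Acod1. Tnf was at 63.3, 45.3 and 49.2 CPM, and its log2 ratio of -0.36 did not pass the rule. In T1 against C, Il1b (1.65), Cxcl3 (4.36) and Spp1 (2.84) were higher and Cxcl1 (-1.53) was lower, beside 2.06% of all genes higher and 4.63% lower. In T3 against T1, 8 members were higher and 0 lower, beside 7.13% and 5.36%. Neutrophil barcodes held 0.0558% of the UMIs of C and 1.46% of those of T3. Without neutrophil barcodes, the 8 genes were still called higher in T3, with Il1b at 3.09, Cxcl2 at 1.50 and Cxcl3 at 5.78.

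**Figure D1:**
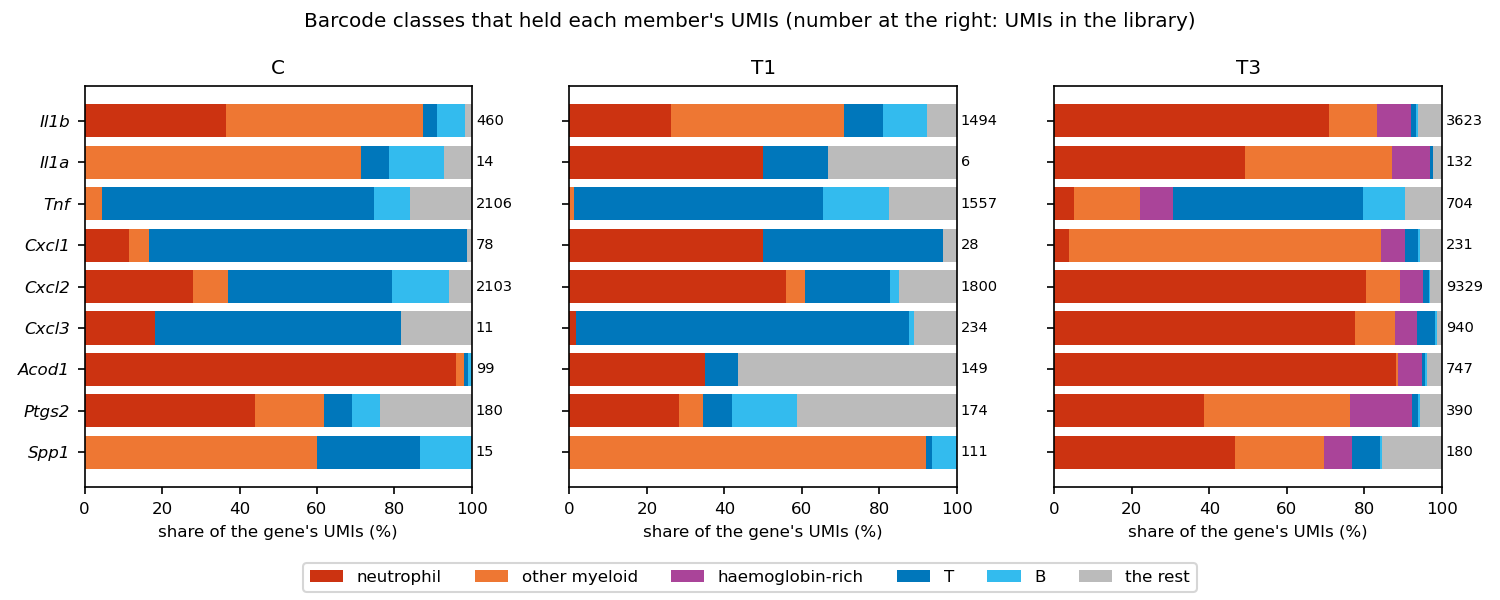
Share of each gene's UMIs (percent) that lay in each barcode class, in libraries C, T1 and T3. Neutrophil barcodes held 70.9% of the Il1b UMIs and 80.5% of the Cxcl2 UMIs of T3, while T barcodes held the largest share of Tnf in all 3 libraries.

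The barcodes that held the transcripts differed by gene and by library. In C, 50.9% of Il1b UMIs lay in other myeloid and 36.5% in neutrophil barcodes. In T1 these shares were 44.6% and 26.2%, and in T3 they were 12.3% and 70.9%. Neutrophil barcodes of T3 were 1.12% of the kept barcodes and also held 80.5% of the Cxcl2, 77.7% of the Cxcl3 and 88.1% of the Acod1 UMIs. T barcodes held 70.2%, 64.4% and 48.9% of the Tnf UMIs of C, T1 and T3, beside 38.2%, 37.5% and 58.4% of all UMIs. The Tnf share of T barcodes thus lay above their share of all UMIs in C and T1 and below it in T3. In T3, other myeloid barcodes held 17.2% of the Tnf UMIs and 0.862% of all UMIs. The plot of UMI shares by class shows this split, in which T barcodes held most Tnf of C and T1, and neutrophil barcodes most Cxcl2 and Cxcl3 of T3.

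Haemoglobin-rich barcodes held 8.72% of the Il1b, 5.92% of the Cxcl2 and 15.9% of the Ptgs2 UMIs of T3, in 24.5% of its barcodes and 9.82% of its UMIs. The share of Cxcl2 (interval 5.45 to 6.42%) lay below the class's share of all UMIs, and that of Ptgs2 (12.4 to 19.9%) above it. For Il1b the interval (7.82 to 9.69%) lay just below it, and for Tnf (8.52%, 6.57 to 10.8%) it spanned it. The class's share counts the haemoglobin UMIs that set the class (135435 CPM), and a share without them was not tested. Cxcl1 differed from the other chemokines in T3: 80.5% of its UMIs lay in 12 other myeloid barcodes and 3.90% in neutrophil barcodes. In C, 82.1% of Cxcl1 UMIs lay in T barcodes.

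**Figure D2:**
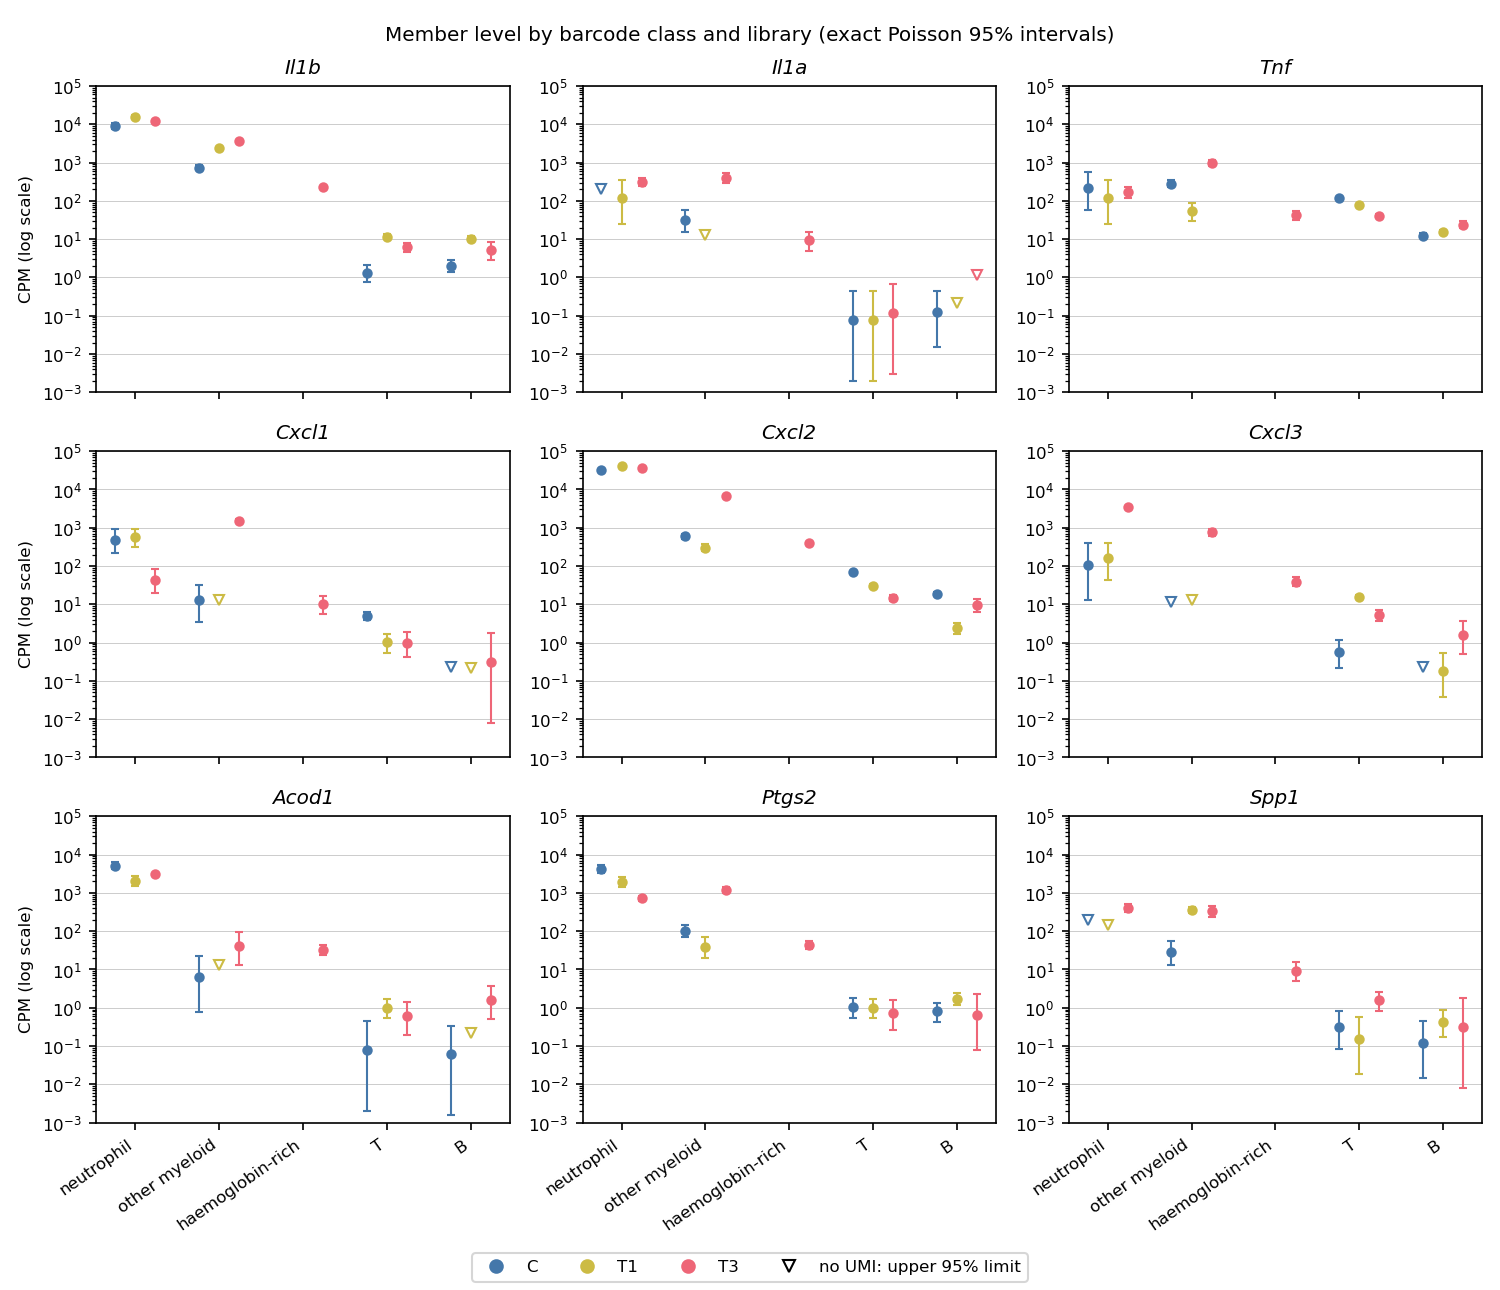
CPM (log axis) of the 9 genes in neutrophil, other myeloid, haemoglobin-rich, T and B barcodes of C, T1 and T3, with 95% Poisson intervals for counting error. Neutrophil barcodes lay above T and B barcodes for Il1b, at 9056 to 15677 CPM against 1.34 to 11.7 CPM.

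Within neutrophil barcodes, Il1b was present in nearly every one, in all 3 libraries. The 6 barcodes of C held 54, 37, 34, 20, 17 and 6 Il1b UMIs, and the 5 of T1 held 113, 102, 70, 54 and 53. The 51 of T3 ranged from 0 to 193 with a median of 42.0, and 49 held at least 1. The barcodes of the 3 libraries overlapped, and those of T1 lay within the range of T3. The levels were 9056, 15677 and 12315 CPM, with a T3 over C ratio of 0.44 on the log2 scale (0.22 to 0.68), which did not pass the 2-fold rule. Over all kept barcodes the same ratio was 4.19.

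Cxcl2 showed the same arrangement. Its UMIs per neutrophil barcode were 136, 132, 125, 104, 62 and 30 in C, 484, 233, 159, 103 and 27 in T1, and 0 to 535 with a median of 125 in T3. The levels of 31750, 40234 and 36029 CPM gave a T3 over C log2 ratio of 0.18 (0.06 to 0.31). Tnf was sparse in neutrophils, with 4, 3 and 35 UMIs (216, 120 and 168 CPM), and 22 of the 51 T3 barcodes held it.

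Cxcl3 was the neutrophil gene with the widest difference between T3 and the other libraries. It had 2 UMIs in C, all in 1 barcode, and 4 in T1, all in 1 barcode, against 730 UMIs in 27 of the 51 barcodes of T3, up to 118 in 1 barcode. The levels were 108, 160 and 3501 CPM, a T3 over C log2 ratio of 5.02 (3.16 to 8.07). Within T3 the gene was uneven, with 24 neutrophil barcodes at 0 and a median of 1 UMI.

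Acod1 and Ptgs2 had their highest neutrophil CPM in C. Acod1 UMIs per barcode were 35, 22, 16, 13, 7 and 2 in C, 23, 18, 7, 2 and 2 in T1, and up to 44 with a median of 11 in T3. Levels were 5121, 2080 and 3155 CPM, lower in T1 than in C (log2 -1.30), while the ratio of T3 to C of -0.70 did not pass the rule. Ptgs2 held 44, 18, 14, 2, 1 and 0 UMIs in the barcodes of C, 20, 18, 5, 5 and 1 in T1, and up to 27 with a median of 1 in T3. At 4259, 1960 and 719 CPM it was lower in T3 than in C (log2 -2.57, -2.97 to -2.15) and lower in T1 than in C (-1.12). In C, 1 of 6 barcodes held 44 of the 79 UMIs. With at least 50 calprotectin UMIs required, Ptgs2 was at 2923 CPM in C and 5034 in T1, so its order between C and T1 turned on this limit, while T3 stayed lower at 711 CPM. Under the limits of 50 UMIs and of 1% calprotectin, the 40234 CPM of Cxcl2 in T1 became 49052 and 75244, and the 15677 CPM of Il1b became 25755 and 26831.

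Il1a and Spp1 were at 0 in the 6 neutrophil barcodes of C and present in T3. Il1a had 65 UMIs in 12 of 51 barcodes (312 CPM), with 49 of them in 2 barcodes, and was at least 1.93-fold higher in T3 than the 162 CPM that 3 counts would give in C. Spp1 had 84 UMIs in 10 barcodes (403 CPM), with 37 in 1 barcode, and was at least 2.49-fold higher. Both were counted as higher because C was at 0, although the bound of Il1a lay under 2-fold. Cxcl1 had 9, 14 and 9 UMIs (485, 560 and 43.2 CPM), and 8 of the 9 in C and all 14 in T1 came from 1 barcode each. Of the 8 members with enough UMIs in T3 and C, 3 were higher and 1 lower, beside 4.97% and 10.5% of the 1147 genes tested. In T1 against C, 0 were higher and 2 lower of 5, beside 25.8% and 11.1%. In T3 against T1, 2 were higher and 2 lower of 9, beside 9.99% and 16.5%: Cxcl3 and Spp1 were higher, and Ptgs2 and Cxcl1 lower, the last against the 1 barcode of T1 that held it, without which T1 was at 0.

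**Figure D3:**
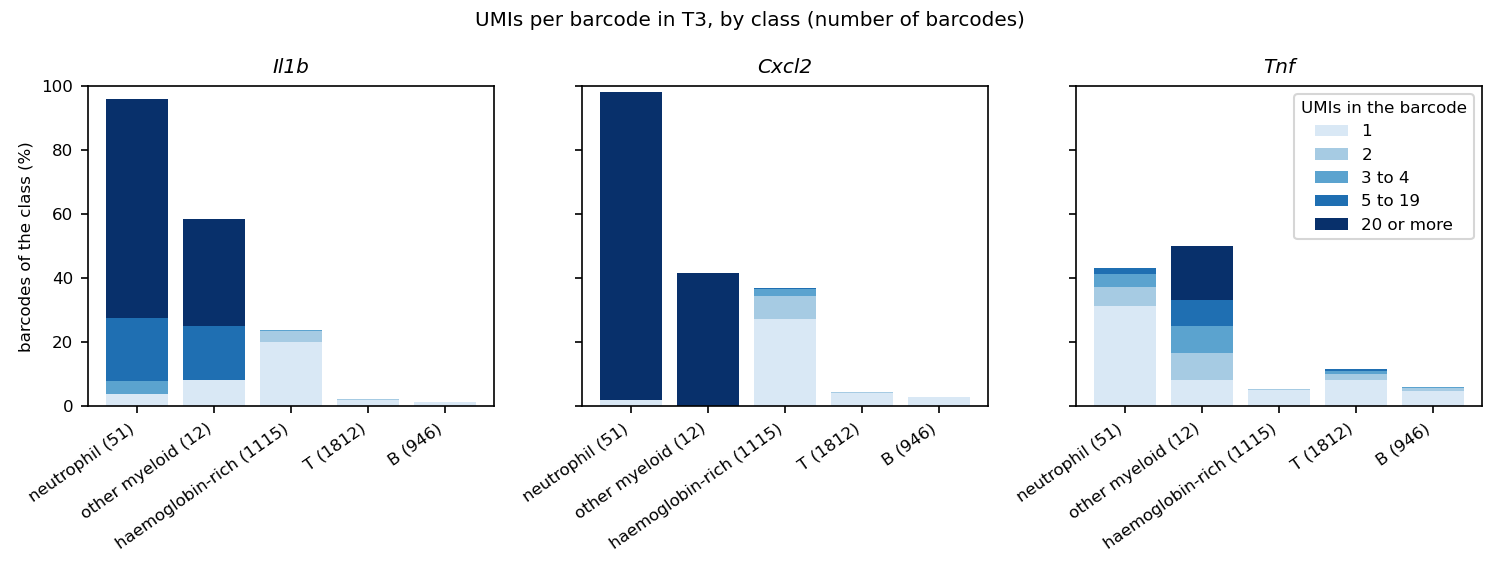
Share of the barcodes of each class of T3 (percent) that held 1, 2, 3 to 4, 5 to 19 or 20 or more UMIs of Il1b, Cxcl2 or Tnf, with the number of barcodes in brackets and barcodes at 0 left blank. Of the haemoglobin-rich barcodes with an Il1b UMI, 84.3% held exactly 1, whereas the median neutrophil barcode held 42.0.

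Other myeloid barcodes, of which T3 had 12, held members at wide differences between libraries. Il1b was at 738, 2352 and 3614 CPM in C, T1 and T3 (234, 667 and 446 UMIs). The log2 ratio to C was 1.67 in T1 and 2.29 in T3, both past the rule. In T3 a barcode with 208 and another with 137 of the 446 UMIs held most of the count, and 5 of the 12 held 0. The level of T3 thus came mostly from 2 barcodes, whereas in T1 16 of 24 barcodes held Il1b.

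Tnf was at 284, 52.9 and 980 CPM, lower in T1 than C (log2 -2.42) and higher in T3 (1.79). In T3 the Tnf UMIs per positive barcode were 80, 24, 11, 3, 2 and 1, and without the highest barcode in each library the T3 ratio was 0.96 and no longer passed. Il1a was at 31.5, 0 and 405 CPM (log2 3.68 in T3 against C), with 35 of its 50 UMIs of T3 in 1 barcode. Without the highest barcode in each library it was at 4.32, with too few UMIs left to be called.

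The chemokines were higher in the other myeloid barcodes of T3 as well. Cxcl1 was at 12.6, 0 and 1507 CPM, with 105, 71, 5 and 5 UMIs in 4 T3 barcodes (log2 6.90). Cxcl2 was at 593, 303 and 6668 CPM, with 477, 209, 62, 40 and 35 UMIs (log2 3.49, and 2.88 without the highest barcode). Cxcl3 was at 0, 0 and 770 CPM, at least 81.3-fold higher in T3 than 3 counts in C, with 80 of 95 UMIs in 1 barcode. The chemokine UMIs thus lay in 3 to 5 barcodes, and 7 of the 12 held no Cxcl2.

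Ptgs2 was at 101, 38.8 and 1199 CPM in other myeloid barcodes, with 72, 49, 24, 2 and 1 UMIs in T3 (log2 3.57, and 3.17 without the highest barcode). Spp1 was at 28.4, 360 and 332 CPM. It was higher in T1 than C (3.66), where 82 of its 102 UMIs came from 1 barcode, and higher in T3 (3.55, and 1.97 without the highest barcode, on too few UMIs). Acod1, at 6.31, 0 and 40.5 CPM, had too few UMIs for the rule. All 8 members tested were higher in T3 than C, beside 9.43% of the 2927 genes tested (6.22% lower). In T1 against C, Il1b and Spp1 were higher and Tnf and Ptgs2 (-1.38) lower, beside 4.49% and 5.81% of all genes. In T3 against T1, 6 of 8 members were higher and 0 lower, beside 11.2% and 5.27%, with log2 4.46 for Cxcl2.

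Markers of other cells were present in this class. The neutrophil genes summed to 2706 CPM in T3, with 12 of 16 present, and calprotectin was at 0, 3.53 and 1791 CPM in C, T1 and T3. The members stood at 202 (Il1b) and 372 (Cxcl2) UMIs per 100 calprotectin UMIs, against 6.29 and 18.4 in neutrophil barcodes. The part of neutrophil RNA in the smaller counts was not tested. In T1, mast genes were at 6216 CPM with 5 of 6 present, against 6.31 and 8.10 CPM in C and T3. Without barcodes that had 2 or more mast genes, the T1 to C ratios of Il1b (1.73), Spp1 (3.72) and Tnf (-2.57) were still past the rule.

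**Figure D4:**
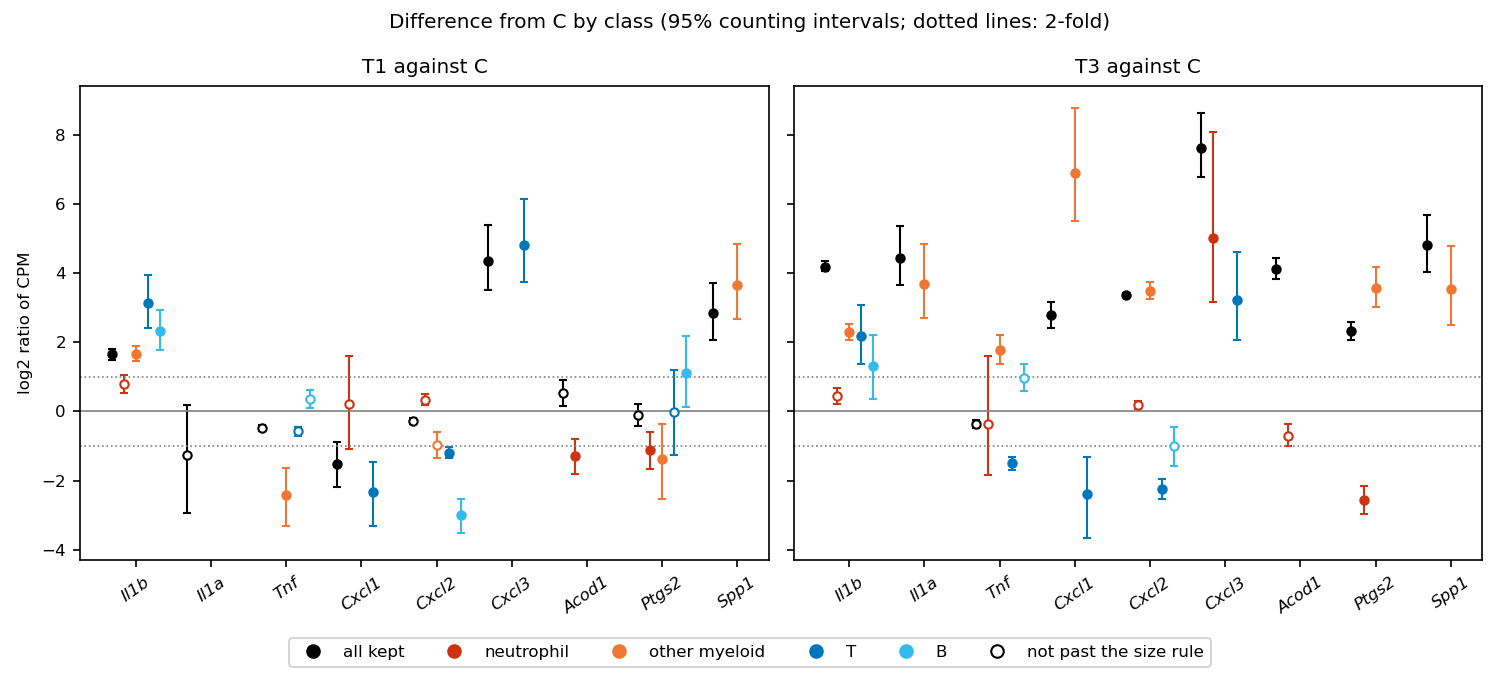
Log2 ratios of CPM of T1 and T3 against C for each gene and barcode class, with 95% counting intervals; members at 0 in C or with too few UMIs for the rule are left out. Il1b in T3 against C was at 4.19 over all kept barcodes and 0.44 in neutrophil barcodes.

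In T barcodes, Tnf was lower in T3 than in C. It was at 116, 77.9 and 41.1 CPM (1478, 1003 and 344 UMIs) in C, T1 and T3, and 597 of 2141, 448 of 2050 and 209 of 1812 barcodes held it. On the log2 scale T3 stood at -1.50 against C (-1.68 to -1.33). T1 stood at -0.58 against C, which did not pass. Median depth was 5858, 6229 and 4672 UMIs. After each barcode was thinned to 1000 UMIs, with 47, 49 and 192 shallower barcodes left out, 9.17%, 7.20% and 4.26% held Tnf. In B barcodes, thinned the same way, 1.37%, 1.56% and 2.86% did, and in the haemoglobin-rich barcodes of T3, 5.22%. The order of the T shares with and without thinning was the same.

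Tnf levels differed among T subsets, which were defined after the values had been seen. Barcodes with an Ifng UMI, a mark of type 1 and cytotoxic cells, had 195, 146 and 94.4 CPM, and those with Il17a or Il17f had 103, 141 and 244 CPM. Barcodes with Foxp3, the factor of regulatory T cells, had 49.9, 53.7 and 37.9 CPM. Ifng barcodes numbered 524, 311 and 70. In C, the 73 T barcodes with 5 or more Tnf UMIs held Ifng in 58.9% (24.5% of all T barcodes) and Ccl4 in 50.7% (18.9%). They held Gzma in 41.1% (10.3%), Gzmb in 41.1% (15.2%) and Ccl3 in 38.4% (14.2%). In T1, 42 such barcodes held Ifng in 38.1% (15.2%), Ccl4 in 28.6% (7.22%) and Gzma in 11.9% (7.56%). Gzmb, in 8 of the 42 (19.5% of all T barcodes), and Ccl3, in 4.76% (4.54%), lay near their shares of all T barcodes. In T3 there were 11 barcodes with 5 or more Tnf UMIs, of which 3 held Ifng.

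Cxcl2 in T barcodes was concentrated in few of them. It was at 70.3, 30.8 and 14.9 CPM (892, 397 and 125 UMIs), lower in T3 than C (log2 -2.23) and lower in T1 than C (-1.19). In C, 32 barcodes with 5 or more UMIs held 93.7% of them, and in T1, 17 barcodes held 84.9%. Of those 32, 29 held Gata3, 26 Il1rl1 (the IL-33 receptor) and 25 Arg1, all genes of group 2 innate lymphoid cells (ILC2). T barcodes with at least 2 of 5 ILC2 genes numbered 123, 93 and 24 and held 74.4%, 79.8% and 1.60% of the Cxcl2 UMIs, at 704, 481 and 14.2 CPM. A Cd3e UMI was present in 17.9%, 46.2% and 79.2% of them, against 79.8%, 78.2% and 67.4% of all T barcodes. In C and T1, many were thus T barcodes only through receptor genes other than Cd3e. Of the 17 barcodes of T1 with 5 or more Cxcl2 UMIs, 15 held Gata3, 11 Il1rl1 and 9 Arg1, while 6 held Cd4 and 3 Foxp3. Whether such barcodes were ILC2 or T cells was not tested.

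The other T barcodes had 19.4, 6.55 and 15.0 CPM of Cxcl2. Without the ILC2-gene barcodes, the T3 to C ratio was -0.38, and with a Cd3e UMI required it was 0.08, neither past the rule. Cxcl1 behaved alike: it was at 5.04, 1.01 and 0.956 CPM, and 46 and 11 of the 64 UMIs of C were in 2 barcodes. Its ratio of T3 to C was -2.40. Without the ILC2-gene barcodes C had 2 UMIs and T3 had 8, a ratio of 2.51, and without the highest barcode in each library it was -1.57, both with too few UMIs left to be called. Tnf was at 105, 91.0 and 42.5 CPM with the ILC2 genes and 117, 77.2 and 41.1 CPM without.

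Cxcl3 in T barcodes peaked in T1, at 0.552, 15.6 and 5.14 CPM (7, 201 and 43 UMIs). It was higher in T1 than C (log2 4.82) and higher in T3 than C (3.22). In T1, 13 barcodes held 195 of the 201 UMIs. Of these 13, 12 held Cd4, 12 Cd3e, 8 Il10, 7 Il17a (53.8%, against 4.29% of T barcodes) and 7 Foxp3. In T3, 3 barcodes held 36 of the 43 UMIs. Of these 3, 3 held Cd3e and 2 Il22, but 1 held 33 S100a9 UMIs, and Cd14, Hdc, Fcer1g and Tyrobp were each present in 1. The part of neutrophil RNA in the T3 count was not tested. The 7 UMIs of C all lay in barcodes with at least 2 ILC2 genes.

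Il1b in T barcodes was at 1.34, 11.7 and 6.10 CPM (17, 151 and 51 UMIs), past the rule in T1 (3.13) and T3 (2.19). Without barcodes that held a B or calprotectin UMI, the T1 value was -0.18. In T1, 4 barcodes held 143 of the 151 UMIs, with a median of 22390 total UMIs against 6229 for all T barcodes, and all 4 held the myeloid genes Lyz2, Fcer1g and Tyrobp. In T3, 40 barcodes held the 51 UMIs, 36 of them with exactly 1. Barcodes that held 2 cell types were not separated further, because the doublet caller marked too few (under 0.5%) in T1 and T3. In T barcodes, of 5 members tested in T3 against C, 2 were higher and 3 lower, beside 4.40% and 11.4% of the 11282 genes tested. In T1 against C, 2 of 6 were higher and 2 lower, beside 2.49% and 3.93%. In T3 against T1, 0 of 5 were higher and Cxcl2 (-1.04) and Cxcl3 (-1.60) were lower, beside 3.53% and 8.10%. Without the ILC2-gene barcodes Cxcl2 was at 1.19 in this comparison, and with a Cd3e UMI required at 0.26.

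In B barcodes the only member past the rule in T3 against C was Il1b. Tnf was at 12.3, 15.7 and 24.1 CPM, with a T3 to C ratio of 0.98 that did not pass. Il1b was at 2.03, 10.2 and 5.08 CPM (33, 172 and 16 UMIs), higher than C in T1 (2.33) and in T3 (1.32). In T3, 13 B barcodes held exactly 1 Il1b UMI and 1 held more. In T1, 9 B barcodes held 119 of the 172 UMIs. Of these 9, 8 held Cd79a, but 4 held Tyrobp (44.4%, against 12.1% of B barcodes) and 3 Fcer1g (33.3%, against 1.33%). Lyz2 and Cd14 were each held by 1 of them, and S100a9 and Csf3r by 0. Whether these barcodes held 2 cell types was not tested. Cxcl2 was at 19, 2.38 and 9.52 CPM, and 218 of the 309 UMIs of C were in 1 barcode, without which C was at 5.60 CPM. Ptgs2 was higher in T1 than C (1.11) on 29 UMIs. In T3 against C, 1 of 3 members tested was higher and 0 lower, beside 5.94% and 5.30% of all genes, and in T1 against C 2 of 4 were higher and 1 lower, beside 0.882% and 3.93%. In T3 against T1, Cxcl2 (9.52 against 2.38 CPM) was higher and Il1b (-1.01) lower, beside 6.00% and 1.92%. After thinning to 1000 UMIs Il1b was at 0.33 in this comparison.

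Haemoglobin-rich barcodes were nearly all in T3, and most of those with Il1b or Cxcl2 held 1 UMI of the gene. The class had a median of 1085 UMIs and a median of 9.97% mitochondrial counts, and haemoglobin was at 135435 CPM. An Il1b UMI was present in 267 of 1115 (23.9%), of which 225 held exactly 1, and no barcode held more than 5. Cxcl2 was present in 410 (36.8%), of which 303 held exactly 1 and 80 held 2, with at most 5. A median of 1085 UMIs compares with 4672 in T barcodes and 3454 in B barcodes, where 2.21% and 1.48% held Il1b. The share in the haemoglobin-rich class was thus the higher at the lower depth. The level was 225 CPM (201 to 251), below neutrophils (12315) and above T (6.10) and B (5.08) barcodes.

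These barcodes also held lymphoid receptor genes. In bins of haemoglobin share, chosen after the values had been seen, 72.0% to 74.8% of barcodes between 1% and 20% held at least 2 T UMIs. These bins held 1097 of the 1115 barcodes. Il1b was at 246 CPM between 1% and 2% haemoglobin, 273 between 2% and 5%, and 160 between 5% and 20%, and Cxcl2 was at 399, 463 and 424 CPM. The 16 barcodes above 50% haemoglobin, with a median of 11072 UMIs and 0.218% mitochondrial counts, held 0 UMIs of all 9 members, which allows up to 22.9 CPM each at the upper limit of the interval. The intervals of Il1b and Cxcl2 in the bins below 20% lay above that limit. These 16 barcodes also held only 1 calprotectin UMI (6.19 CPM), against 1712 to 2250 CPM in the bins below 20%. Because over 50% of their UMIs were haemoglobin, their CPM are not on the same scale as those of the other bins.

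**Figure D5:**
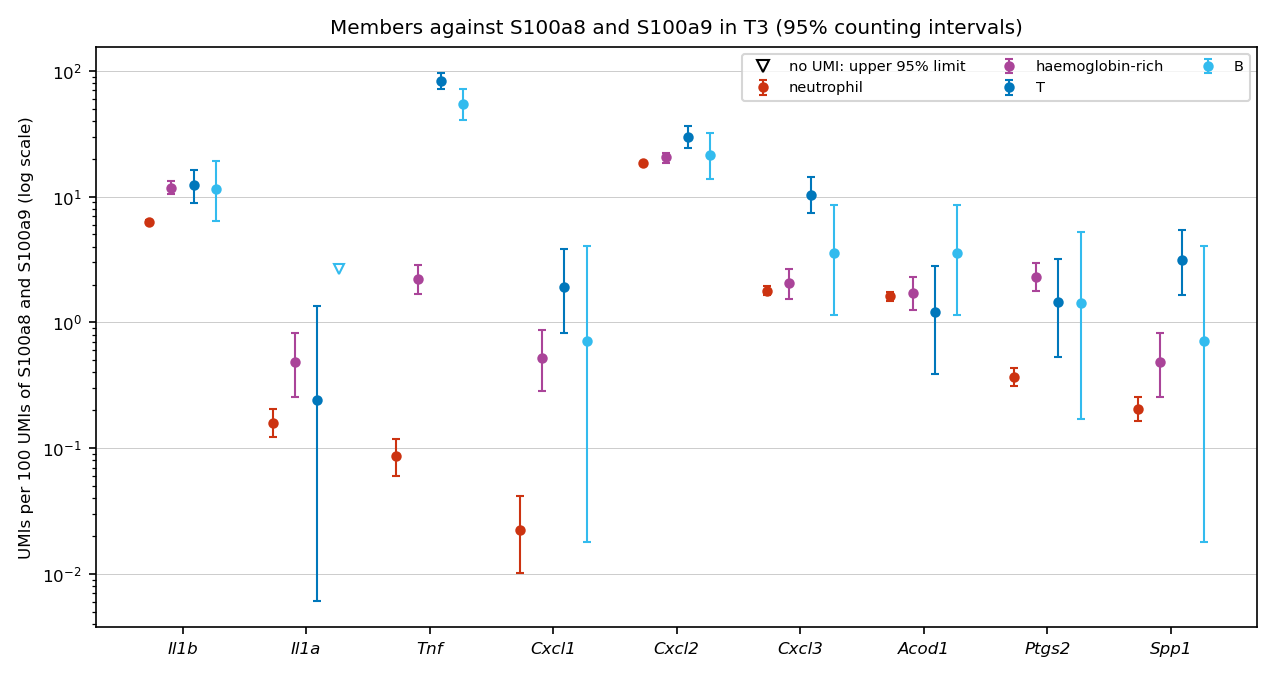
UMIs of each gene per 100 UMIs of S100a8 plus S100a9 in the neutrophil, haemoglobin-rich, T and B barcodes of T3 (log axis), with 95% counting intervals. Cxcl2 lay at 18.4 in neutrophil and 20.5 in haemoglobin-rich barcodes, whereas Tnf lay at 0.0858 and 2.22.

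Calprotectin served as a tracer of neutrophil RNA, on the premise that RNA from 1 source keeps its genes in 1 ratio. The neutrophil class was itself set by calprotectin UMIs, the denominator of the ratio, which favours a low ratio there. For Il1b the neutrophil ratio also differed between libraries, at 11.3 in C and 56.0 in T1, so it was not fixed. A class above the neutrophil ratio of T3 is therefore not shown to have another source of the RNA. In T3, 85.8% of haemoglobin-rich, 15.9% of T and 13.1% of B barcodes held a calprotectin UMI. In the neutrophil barcodes that set the ratio, T3 had 6.29 Il1b UMIs per 100 calprotectin UMIs (6.05 to 6.55) and 18.4 Cxcl2. Haemoglobin-rich barcodes had 11.7 (10.4 to 13.2) and 20.5 (18.6 to 22.4), T barcodes 12.3 (8.98 to 16.4) and 24.4 to 36.8 (25.1 without the highest barcode), and B barcodes 11.4 (6.36 to 19.2) and 21.4 (13.9 to 32.0). For Cxcl2 the intervals of haemoglobin-rich and B barcodes overlapped that of neutrophils (upper limit 18.9), and that of T barcodes lay above it. For Il1b those of haemoglobin-rich and T barcodes lay above that of neutrophils, and that of B barcodes overlapped it.

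Acod1 per 100 calprotectin UMIs was 1.61 in neutrophil, 1.70 in haemoglobin-rich, 1.20 in T and 3.57 in B barcodes, with overlapping intervals, and Cxcl3 was 1.79, 2.04, 10.3 and 3.57. Without the highest barcode, T barcodes had 5.53 Cxcl3. Tnf was far from the neutrophil ratio: 0.0858 in neutrophil, 2.22 in haemoglobin-rich, 82.7 in T and 54.3 in B barcodes. In the neutrophil barcodes of C and T1 the Tnf ratio was 0.270 and 0.429, on 4 and 3 Tnf UMIs. In T3, Ptgs2 was 0.368 in neutrophil and 2.30 in haemoglobin-rich barcodes. Over all kept barcodes of T3 the values were 8.06 for Il1b (7.79 to 8.33), 20.7 for Cxcl2, 2.09 for Cxcl3, 1.66 for Acod1, 1.57 for Tnf and 0.867 for Ptgs2.

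In haemoglobin-rich barcodes with a calprotectin UMI, 25.1% held Il1b (median depth 1101 UMIs), against 17.1% without one (900 UMIs). In T barcodes of T3 the shares were 5.19% and 1.64%, at 5000 and 4603 UMIs. B barcodes of T3 went the other way, at 0.806% (1 of 124) with and 1.58% (13 of 822) without one, with overlapping intervals. So did Acod1 in haemoglobin-rich barcodes, at 3.55% with a calprotectin UMI and 6.33% without. Among T barcodes with no calprotectin and no B UMI, Il1b in T3 stood at log2 0.99 against C, no longer past the rule, and Tnf at -1.61, still past it. The part of free RNA in each class was not tested beyond these ratios.

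The fixed lists of pathway genes were compared over all kept barcodes of T3 and C. Of 9 IL-1 system genes, 5 were higher and 1 lower: the receptor antagonist Il1rn (log2 4.62), the inflammasome sensor Nlrp3 (3.27), the decoy receptor Il1r2 (2.21), Il1r1 (1.40) and Il1rap (1.33) were higher, and Il18 (-1.44) lower. Of 7 sensing genes, 4 were higher and 0 lower: Clec4d (4.95), Cd14 (4.59), Clec4e (2.93) and Tlr2 (1.86). Of 9 chemokine and receptor genes tested, Cxcr2 (5.06) and Ccl6 (2.94) were higher and Ccl2 (-1.70) lower. The shares of all genes given above for this comparison are the background for these counts.

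The other lists had fewer calls. Of 13 NF-kappaB genes, 1 was higher (Tnfaip2, 1.96), and of 5 TNF system genes, 1 (the receptor Tnfrsf1a, 1.05). Nfkbia, the inhibitor of the factor that NF-kappaB also induces, was at 591, 711 and 531 CPM in C, T1 and T3. Of 5 Acod1 partner genes, Slc7a11 (4.65) and Nos2 (6.30, on 34 UMIs in T3 and 1 in C) were higher and Arg1 (-2.89) lower. Of 5 prostaglandin genes and 5 osteopontin receptor genes, 0 were past the rule, with the prostaglandin receptor gene Ptger4 at 29.8, 28.1 and 33 CPM and Cd44 at 68.4, 70.6 and 68.6 CPM. Among the genes of each list with the most UMIs, Pycard (110, 106 and 79.2 CPM) and Casp1 (28.2, 22.1 and 16 CPM) of the inflammasome, Traf1 (140, 158 and 131) of TNF signalling and Tnfaip3 (224, 253 and 333), a brake on it, were not past the rule.

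The same lists were compared within classes. In neutrophil barcodes of T3 against C, Il1r2 (3234, 2320 and 1266 CPM in C, T1 and T3, log2 -1.35), Clec4e (-1.32) and Tnfaip2 (-1.98) were lower. Ccl4 (2.68) and Cd14 (1.14) were higher. These stand beside 4.97% of all genes higher and 10.5% lower in that class. In other myeloid barcodes, where 9.43% of all genes were higher and 6.22% lower, 4 of 5 sensing genes, 3 of 3 Acod1 partner genes, Il1rn (22.1, 7.05 and 826 CPM, log2 5.23), Tnfrsf1b (1.71) and Adam17 (1.68) were higher. Lower in that class were 3 of 13 NF-kappaB genes (Rel, Icam1 and Zfp36), Il1r2 (-1.20), Traf1 (-1.37), Cxcl10 (-1.78) and Ptger4 (-4.77). In T barcodes, Ccl3 (163, 25.5 and 10.8 CPM, log2 -3.92) and Ccl4 (-3.14), chemokines of effector T cells, were lower. So were Casp1 (-1.38), Alox5ap (-4.17) and Arg1 (-4.69). Higher in T barcodes were Cxcr4 (1.40), Il1r2 (1.69) and Il1rn (5.30, 2.70 to 10.66, on 26 UMIs in T3 and 1 in C). These stand beside 4.40% of all genes higher and 11.4% lower.

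The genes with profiles most like Il1b, by Pearson r of log2(CPM plus 1) over the 13 class and library profiles with at least 5 barcodes and among 11057 genes, were Cd14 (0.986), Hp (0.978), Emilin2 (0.976), Gda (0.972) and Cd33 (0.971). Among members, Ptgs2 stood at 0.958 and Cxcl2 at 0.923 to Il1b. For Tnf the 5 were Smpdl3a (0.890), Plin2 (0.867), Mettl9 (0.867), Vsir (0.862) and Furin (0.861), and Tnf to Il1b stood at 0.658. The profiles share libraries and differ in depth, so these values only describe likeness in this set.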

How the data were processed

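CD45+ cells of 3 mouse colon libraries were analysed from deposited UMI count matrices, made by the authors with Cell Ranger 3.1.0 on GRCm38 per the submitters' processing notes, which also name CASAVA 1.8 and Seurat 3.1.4. Whether introns were counted is not given in the sources used here. Barcodes under 200 genes or over 20% mitochondrial counts were left out (1899, 2423 and 1236), and the rest sorted by fixed marker rules. Counts were summed per class and library. Intervals are exact Poisson, conditional binomial or Clopper-Pearson at 95%. No test between libraries was possible. Analysis used Python 3.11.15, numpy 2.4.6, scipy 1.17.1, pandas 2.3.3 and scanpy 1.11.5, and the interval code was tested on simulated data. Scrublet marked 69, 3 and 1 barcodes, so the caller did not work in T1 and T3 and doublets remain apart from mixed T and B barcodes. The 9 members, the pathway lists and the classes were chosen with earlier results of these data known. Named genes are all 9 members, the 4 genes of each pathway list with the most UMIs (values for some), and the 5 most alike to Il1b and to Tnf; other pathway genes, named where few were past the rule, and the genes of high barcodes were chosen after their values were seen. The alternatives tried are given below.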

Additional observations from a re-analysis of the deposited data

Results flagged for a closer look

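In 5 cases a gene was past the size rule in opposite directions in 2 barcode classes. None of these differences was tested, since each class held 1 library per group. In T3 against C, Tnf was higher in other myeloid barcodes (log2 1.79) and lower in T barcodes (-1.50), Cxcl1 was at 6.90 and -2.40, and Cxcl2 at 3.49 and -2.23. Without the highest barcode in each library the 1.79 of Tnf became 0.96. Without T barcodes with ILC2 genes, or with a Cd3e UMI required, Cxcl2 in T barcodes became -0.38 or 0.08, and Cxcl1 2.51 or 2.50, the 2.51 on 10 UMIs. Ptgs2 was higher in other myeloid barcodes (3.57) and lower in neutrophil barcodes (-2.57). In T1 against C, Ptgs2 was higher in B barcodes (1.11) and lower in other myeloid barcodes (-1.38).

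Among barcodes left out by the filter, 4 members had intervals in T3 that lay above those of C. Tnf did not, at 78.2 CPM in T3 and 81.6 in C. In T3 Cxcl2 was at 79.4 CPM (46.8 in C), Cxcl3 at 10.7 (0 in C), Acod1 at 5.67 (0 in C) and Ptgs2 at 12.0 (3.12 in C).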

How the results depend on the processing

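No paired analysis was possible because each group had 1 library. Of 343 alternative log2 ratios, 308 kept their call, 18 no longer passed, 8 newly passed and 9 reversed. A reversal was counted only where the reported ratio had passed the rule. A change of sign in a ratio that had not passed was not followed. The reversals were mostly in T barcodes. Without T barcodes with ILC2 genes, Cxcl1 was at 1.94 (T1 to C) and 2.51 (T3 to C), each on 10 UMIs, and Cxcl2 at 1.19 (T3 to T1); with a Cd3e UMI required, 1.77, 2.50 and 0.26, and Cxcl2 (T3 to C) was 0.08. Cxcl2 (T3 to C, -2.23) was -0.38 without the ILC2-gene barcodes. Il1b in T barcodes (T1 to C) was -0.18 without calprotectin or other-lineage UMIs, and Il1b in B barcodes (T3 to T1) was 0.33 after thinning. The splits by ILC2 genes and by Cd3e, and leaving out neutrophil, mast-gene or highest barcodes, were chosen after seeing the data. With haemoglobin at 5% or more, the share of T3 Il1b UMIs in haemoglobin-rich barcodes was 0.552% (8.72% at 1%). With a minimum of 100 UMIs, genes higher and lower in T3 than C were 472 and 719 over all kept barcodes (898 and 1193 at 20), 260 and 714 in T (496 and 1281) and 374 and 328 in B (637 and 568). Over all kept barcodes, members higher and lower in T3 than C stayed at 8 and 0 under the 6 alternatives run, and members higher in T1 than C went from 3 to 4 without neutrophil barcodes (Acod1, 4.55). Of the 149 Acod1 UMIs of T1, 52 lay in neutrophil barcodes and 73 in 1 barcode sorted as plasma. Of 108 neutrophil levels under other settings, 88 stayed within their interval and 20 moved. With at least 50 calprotectin UMIs 11 moved and 16 stayed, and with at least 1% calprotectin 9 moved and 18 stayed. The other settings hardly changed the class, and 27 stayed under each. These were all deposited barcodes (52 neutrophil barcodes in T3 against 51) and leaving out the 1 neutrophil barcode of T3 at 1% haemoglobin. The depth of 6 and 5 neutrophil barcodes limits C and T1.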

Other observations

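In T3, 4 unnamed barcodes held 197 of the 220 Il1b UMIs of that class. All 4 held Cd14 and Tyrobp, and 3 held G0s2, S100a9 and Hdc, with a median of 1794 UMIs against 700 for the class. In T1, 1 barcode sorted as plasma held 73 Acod1, 78 Tnf and 199 Cxcl2 UMIs. It also held 862 Ccl3, 721 Ccl4, 127 Il4, 40 Hdc and 8 Il13 UMIs and 0 of the B gene Cd79a. Its plasma label rests on the fixed rule alone, and its cell type was not tested.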
